A study of Arabidopsis thaliana with 64 samples.

Results

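The transcripts described here were abundant in leaves of Landsberg erecta (Ler) and scarce in leaves of C24, the inbred *Arabidopsis* parents of a hybrid cross. Members were chosen by the measured levels of the parents at 28 days after sowing (DAS). A gene was a member if it held at least 2 CPM (the reads of a gene scaled to the total reads of its library) in each of the 4 Ler pools of that age, and if each of the 4 C24 pools held at most 1/16 of the lowest Ler value. Organelle genes and 3 genes named by the rule were left out. The rule found 31 members among 33321 gene rows, with 8 members on chromosome 1, 4 on chromosome 2, 9 on chromosome 3, 5 on chromosome 4 and 5 on chromosome 5. The mirror rule, for transcripts abundant in C24 and scarce in Ler, found 60 genes.

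The 64 libraries came from reciprocal F1 hybrids, F4 lines of the cross and both parents, each library from a pool of 5 plants and each group with 2 pools. All plants were untreated and grew in long days, and they were sampled as the aerial part of seedlings at 15 DAS or as the largest leaves at 28 DAS. The first batch contained the C24xLer hybrid, the hybrid mimic lines L1-1, L1-2, L2-1 and L2-2, and 2 pools of each parent. The second batch, grown under other light tubes, contained the LerxC24 hybrid, lines L3-1, L3-2, L4-1 and L4-2, and 2 further pools of each parent. Lines S1-1 and S2-1, and pools of the smallest Ler and C24 seedlings, were sampled at 15 DAS alone. The labels do not say which S line grew with the first batch, so both were set against the parents of batch 1. Pools of a group are separate samples by their labels, so p-values measure the spread between pools.

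Inbred accessions of a selfing plant differ by point changes, insertions and whole gene copies, and a transcript that one accession makes and the other does not is often inherited with the piece of chromosome that carries the gene. An F1 carries both parental copies of every nuclear gene. Later selfed generations become fixed for the copy of one parent at most places, in blocks of linked genes, and a line can still segregate at some of them. Reads of every plant were mapped to the reference genome of a further accession, Columbia, so a scarce C24 transcript cannot be told apart from a C24 gene whose sequence is too different, or absent, for its reads to map.

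Total counts ranged over libraries between 36324848 and 256721442, with 28740 to 31401 genes detected. Leaf marker genes were present in all libraries (6 of 6 above 1 CPM), though some varied widely. At 28 DAS LHCB2.1 ranged between 23.44 and 2765 CPM and LHCB1.1 between 85.17 and 5999 CPM. The 7 root markers summed to 65.3 to 337 CPM at 15 DAS, with PYK10 at up to 301.8 CPM, and to 14.1 to 26.6 CPM at 28 DAS. Flower and shoot meristem markers moved with the parents at 15 DAS, with none at 0. The 8 flower markers, among them SEP3 and AP1, summed to 24.1 to 34.2 CPM in Ler and 14.1 to 16.7 CPM in C24, and to 54.8 and 60.8 CPM in S1-1 and 33.8 and 39.5 CPM in S2-1. The 6 meristem markers, with WUS and CLV3 below 1 CPM throughout, summed to 118 to 153 CPM in Ler and 75.9 to 103 CPM in C24. Root markers went the other way, with 68.2 to 78.8 CPM in Ler and 107.8 to 124 CPM in C24 of batch 2. In batch 1 they summed to 75.35 to 133 and 144 to 155.5 CPM, and in the smallest seedlings to 65.3 to 136 and 156 to 337 CPM. At 28 DAS flower markers summed to 7.015 to 9.19 CPM in Ler and 4.33 to 6.13 CPM in C24. Meristem markers then summed to 68.1 to 87.6 and 44.05 to 63.0 CPM. The part of these marker differences in the differences between the parents and between the S lines was not tested. A pool of L4-2 titled 28 DAS has a tissue label of 15-day seedlings; the title was followed, and its root marker sum lay within the range of that age. At 15 DAS the Ler pools of batch 1 stood apart. The members sat there at a median of 0.694 and 0.753 of the Ler level of batch 2, and transcripts of the mirror set, scarce in Ler leaves, sat at 0.352 and 0.232 of the C24 level. In the smallest Ler seedlings the member shares were 0.963 and 0.942, and the mirror shares 0.0184 and 0.0193. In Ler of batch 2 the mirror shares were 0.0323 and 0.0193. The member shares of batch 2, 0.996 and 1.004, lie near 1 by construction, since these pools set the Ler level. Whether these pools hold C24 material or carry a wrong label was not tested, and each value set against them shares that limit. Main results that rest on Ler of batch 1 at 15 DAS are therefore given with the smallest Ler seedlings in its place as well. C24 pool B of batch 1 and pool B of the smallest C24 seedlings were also more alike than other pairs (standard deviation of log2 ratios 0.0531, against at least 0.151 in any other pair), although above the counting noise of 0.0310.

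All 31 members matched the reference gene table. Of these, 19 are protein-coding genes, 9 are pseudogenes and 3 are noncoding RNAs. Pseudogenes made up 29.03% of the members and 1.286% of the 16793 annotated nuclear genes with at least 2 CPM in every Ler pool. Genes of noncoding RNA made up 9.677% of members and 1.256% of those genes. All 3 noncoding RNA members overlap a pseudogene member (DRP4D, AT2G24760 or AT3G29642). Each such pair may be 1 signal counted in both classes, so the 2 shares are not separate results. There were 3 F-box genes (AT1G10110, AT1G27540 and AT3G28223), which encode substrate receptors of ubiquitin ligases, or 9.677% of members against 0.8932%. No member was among the 124 disease-resistance genes with such levels, which made up 0.7384% of those genes, so that 0 of 31 is near the background. Further members with an annotated product were AT1G66660 (a RING/U-box protein), AT3G18535 (a tubulin-tyrosine ligase), AT3G44070 and AT5G26622 (glycosyl hydrolase 35 and beta-galactosidase related), AT4G19239 (a pseudogene of a beta-galactosidase related gene), CYP71A25 (a cytochrome P450), AT3G62530 (ARM repeats), AT3G62540 (a pentatricopeptide-repeat protein, a family known for binding organelle RNA) and AT4G14905 (kelch repeats). ARGAH2 encodes an arginase, which cleaves arginine to ornithine and urea. CSLA01 belongs to the cellulose synthase-like A family, known for making mannan backbones. DRP4D is annotated as a pseudogene of a dynamin-related gene, and SADHU5-2 belongs to the Sadhu elements, noncoding retrotransposons.

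Some members share their position with another gene. AT1G60505 overlaps DRP4D, AT2G24755 overlaps AT2G24760, and AT3G29642 overlaps AT3G29644. AT1G10110, AT1G24388, AT2G24755, AT3G18535, AT3G44070 and AT5G49640 each overlap a gene that is no member. The handling of strand is not given in the sources used here, so the reads of such pairs cannot be told apart and each pair may be 1 signal.

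The 28 DAS values of the parents chose the members and are given as a description. CPM is not scaled to gene length, so levels are compared between samples and not between genes. ARGAH2 in Ler held 160 and 167 CPM in batch 1 and 594 and 438 CPM in batch 2, with at most 0.793 CPM in a C24 pool. AT3G62530 held 107, 209.7, 135 and 141 CPM in Ler pools A to D and at most 3.22 CPM in C24. CSLA01 ranged widely between Ler pools (82.1, 159, 183 and 30.1 CPM), with 0.354 to 1.58 CPM in C24. AT3G29642 held 2.04 to 2.71 CPM in Ler and no read in any C24 pool, and AT3G43350 held 2.82 to 5.71 CPM in Ler and likewise none in C24. The members nearest inside the limit were AT3G62540, CSLA01 and AT4G14905, whose lowest Ler pool was 16.5, 19.1 and 19.3 times their highest C24 pool. Nearest outside were AT3G44205 (14.9 times), Sadhu4-2 (14.2 times) and AT2G10931 (13.8 times).

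Seedlings at 15 DAS were not used by the rule, and there Ler exceeded C24 at 29 of the 31 members. In batch 1 the 29 members passed the test (edgeR quasi-likelihood test, Benjamini-Hochberg (BH) adjusted p below 0.05 over 30207 genes), where 3.87% of all genes were called higher in Ler. The same 29 passed in batch 2 (8.99% of all genes higher) and in the smallest seedlings (4.84%). The median log2 difference, Ler over C24, was 3.82, 4.70 and 4.51 over the 31 members, against -0.01, 0.00 and 0.00 over all tested genes.

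AT3G18535, the tubulin-tyrosine ligase gene, held 31.5 and 54.9 CPM in Ler of batch 1, 124 and 98.4 CPM in Ler of batch 2 and 54.6 and 63.9 CPM in the smallest Ler seedlings, against 0.575 to 1.12 CPM in the C24 pools. Every Ler pool lay above every C24 pool by more than an order of magnitude. The log2 difference was 5.74 ± 0.36 (standard error) in batch 1 and 7.24 ± 0.38 in batch 2 (edgeR, BH adjusted p = 3.25e-10 and 9.95e-12). The noncoding RNA AT2G24755 held 34.1 to 43.1 CPM in the 6 Ler pools and 0.447 to 1.01 CPM in the 6 C24 pools. Its spread within Ler was small next to the gap between parents (log2 differences 5.78 ± 0.21 and 6.28 ± 0.22, edgeR, BH adjusted p = 1.18e-13 and 2.09e-14). The F-box gene AT1G27540 held 46.0 and 80.0 CPM in Ler of batch 1 and 79.9 and 81.5 CPM in Ler of batch 2, against 3.15 and 3.24 CPM and 4.35 and 4.41 CPM in C24 (log2 differences 4.25 ± 0.41 and 4.23 ± 0.41, edgeR, BH adjusted p = 2.07e-07 and 1.13e-07). AT2G14460, a gene with no annotated product, held 10.1 to 16.0 CPM in the Ler pools and at most 0.186 CPM in a C24 pool.

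AT3G28223 and CSLA01 did not pass in any of the 3 comparisons of seedlings. AT3G28223 held 0.654 to 1.41 CPM in Ler and 0.320 to 0.856 CPM in C24, and the groups overlapped (log2 differences 0.46 ± 0.37, 0.93 ± 0.42 and 0.84 ± 0.37 in batch 1, batch 2 and the smallest seedlings, edgeR, BH adjusted p = 0.617, 0.131 and 0.171). CSLA01 held 1.87 to 3.14 CPM in the 4 Ler pools of batches 1 and 2 and 1.59 to 1.97 CPM in the 4 C24 pools, and these overlapped (log2 differences 0.56 ± 0.23 and 0.11 ± 0.24, edgeR, BH adjusted p = 0.202 and 0.804). In the smallest seedlings it held 2.51 and 3.61 CPM in Ler and 1.86 and 1.88 CPM in C24, without overlap (0.71 ± 0.24, edgeR, BH adjusted p = 0.0580). The kelch-repeat gene AT4G14905 passed with a smaller difference than most members. It held 24.8 and 32.3 CPM in Ler of batch 1 and 29.4 and 27.6 CPM in Ler of batch 2, against 8.73 to 15.4 CPM in the C24 pools (log2 differences 0.96 ± 0.14 and 1.73 ± 0.15, edgeR, BH adjusted p = 0.000114 and 2.38e-08). CYP71A25 passed in batch 1 at 1.15 (edgeR, BH adjusted p = 0.0129), a call lost on leaving out either C24 pool A or Ler pool B.

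**Figure D1:**
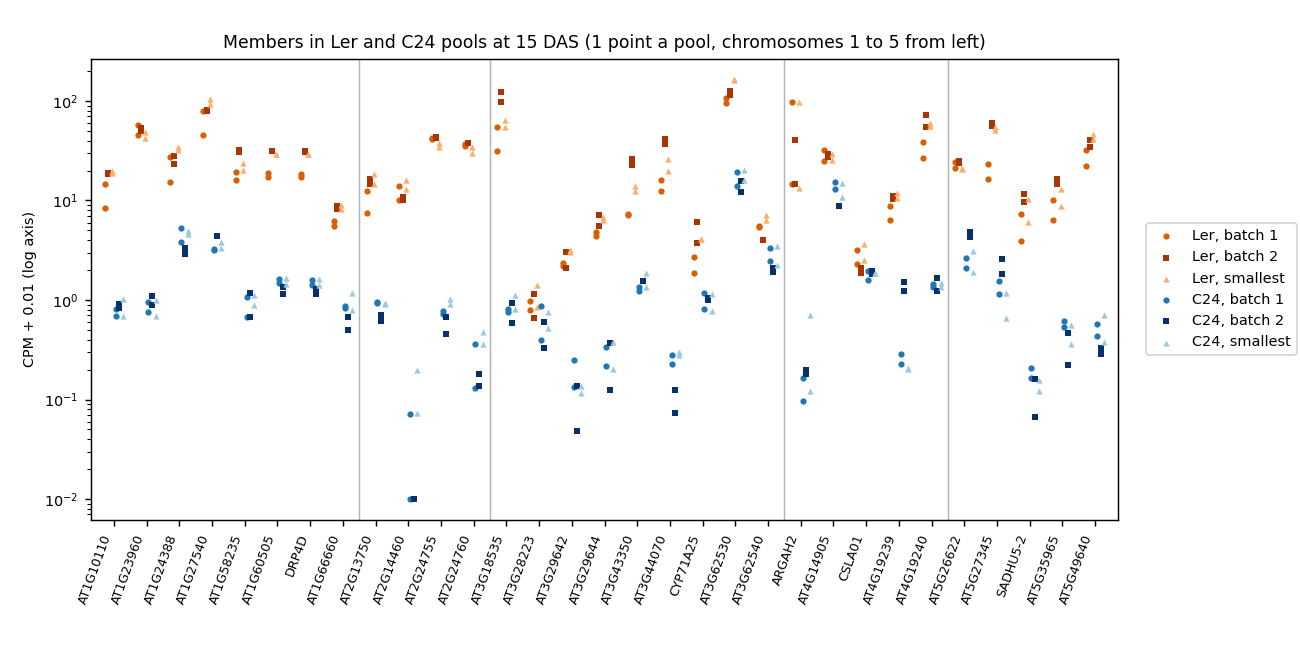
Levels of the 31 members in parental seedlings at 15 DAS, in CPM plus 0.01 on a log axis, with 1 point per pool for Ler and for C24. Nearly all members show separate clusters of points, and AT3G28223 and CSLA01 show points of both parents at like levels.

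Several members changed their Ler level between the ages, which differ in tissue as well as in age, so that fewer cells of a type and less RNA per cell cannot be told apart. Over 4 pools of each age (batches 1 and 2), CSLA01 in Ler was 48.34 times as high at 28 DAS as at 15 DAS, ARGAH2 8.14 times, CYP71A25 3.828 times and AT3G28223 3.417 times. With the smallest Ler seedlings in place of Ler of batch 1 these ratios were 44.97, 8.173, 3.038 and 2.992. That of ARGAH2 moved most with 1 seedling pool, and was 14.59 without Ler pool A of batch 1. Its Ler means also differed between the batches, at 163.6 CPM (28 DAS) and 55.9 CPM (15 DAS) in batch 1. In batch 2 they were 515.8 and 27.6 CPM. AT4G14905 was at 0.2447 and AT3G43350 at 0.2612 of the 15 DAS level (0.2507 and 0.2201 with the smallest Ler seedlings). AT4G14905 in Ler held 7.74, 6.70, 5.75 and 7.71 CPM at 28 DAS, and in C24 0.298, 0.273, 0.141 and 0.202 CPM, below the seedling levels of both parents. These ratios are given with no test, since the 28 DAS values chose the members.

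**Figure D2:**
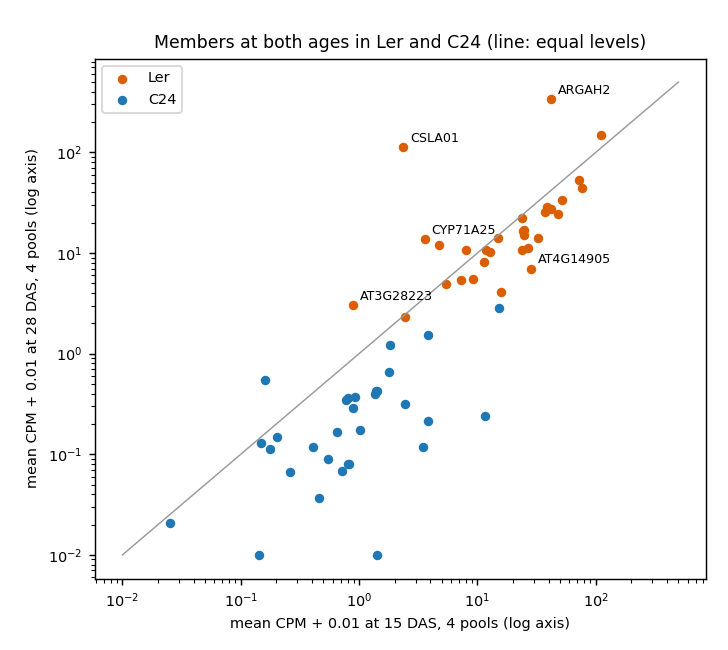
Mean CPM plus 0.01 of each member over the 4 pools of a parent, at 15 DAS (x axis) and at 28 DAS (y axis), both on log scales, for Ler and for C24. Points of CSLA01 and ARGAH2 in Ler lie far above the diagonal, and those of AT4G14905 and AT3G43350 in Ler lie below it.

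The F1 hybrids expressed nearly all members, at levels between the parents. At 15 DAS, 29 members were higher in C24xLer than in C24 (1.32% of all genes called higher) and 28 were higher in LerxC24 than in C24 (1.73%), and 28 members were called in both hybrids. AT3G18535 held 31.9 and 31.8 CPM in C24xLer and 51.9 and 50.6 CPM in LerxC24. AT2G24755 held 25.5 and 21.7 CPM in C24xLer and 20.3 and 23.2 CPM in LerxC24. All 4 hybrid pools lay below every Ler pool and above every C24 pool at AT2G24755.

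Against Ler, the median of members in LerxC24 at 15 DAS was 0.5462 of the Ler level of its batch, with 0.9931 over all genes. In C24xLer the median was 0.8086 of Ler of batch 1, the pools that stood apart, and 0.5672 of the smallest Ler seedlings, with 0.9651 and 0.9679 over all genes. At 28 DAS the medians were 0.4572 in C24xLer and 0.5373 in LerxC24, described with no test, with 0.9622 and 1.002 over all genes. ARGAH2 had the lowest ratios at 15 DAS (0.2165 in C24xLer and 0.1376 in LerxC24), where its Ler pools also differed most among themselves (97.1 and 14.7 CPM in batch 1, 14.6 and 40.6 CPM in batch 2). AT3G28223 in LerxC24 at 28 DAS, with 4.07 and 1.45 CPM, was at 1.034 of Ler.

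**Figure D3:**
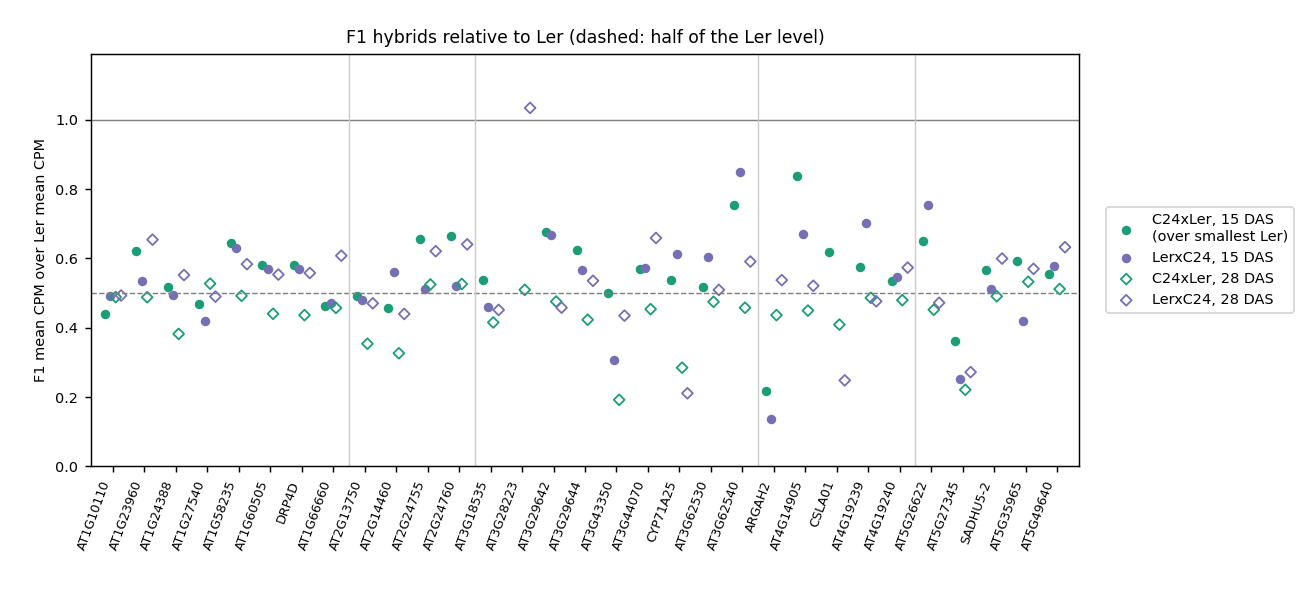
Mean hybrid CPM over mean Ler CPM (y axis, linear) for members with at least 2 CPM in Ler, in chromosome order on the x axis, with 1 point per hybrid and age; C24xLer at 15 DAS is set over the smallest Ler seedlings. All points but that of AT3G28223 in LerxC24 at 28 DAS lie below the Ler level, around medians of 0.5672 and 0.4572 in C24xLer and 0.5462 and 0.5373 in LerxC24.

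At 15 DAS, 11 members passed as lower in LerxC24 than in Ler (1.79% of all genes called lower). Leaving out any of the 4 pools left 2 or 3 of them, and the calls kept throughout were AT3G43350 (log2 difference -1.68 ± 0.16, edgeR, BH adjusted p = 3.73e-07) and AT5G27345 (-1.95 ± 0.37, edgeR, BH adjusted p = 0.00249), both pseudogenes that are named here after their values were seen. AT5G27345 held 16.0 and 13.1 CPM in LerxC24 and 59.5 and 55.4 CPM in Ler of batch 2, with 2.59 and 1.83 CPM in C24. In C24xLer, AT2G24755 alone passed as lower than Ler of batch 1 (0.626% of all genes), a call lost without any of the 4 pools. Against the smallest Ler seedlings 8 members passed. No share over all genes is given for that count, so whether it stands out cannot be told. No member passed against an in silico mid-parent (the average of 1 C24 and 1 Ler library of the batch) by edgeR in either hybrid. Among all genes the mid-parent test called 0.209% in C24xLer and 0.0166% in LerxC24, with 1233 and 1474 genes at an unadjusted p below 0.05, and DESeq2 called 3 members in C24xLer and 1 in LerxC24. The median ratio to the mid-parent was 1.438 in C24xLer (1.078 with the smallest Ler seedlings) and 1.038 in LerxC24.

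Between the reciprocal hybrids, 1 member passed at each age, AT3G62540 at 15 DAS (LerxC24 over C24xLer, log2 -0.52 ± 0.16, edgeR, BH adjusted p = 0.0357, with 13.9% of all genes called) and ARGAH2 at 28 DAS (2.16 ± 0.48, edgeR, BH adjusted p = 0.00608, with 11.5% called). ARGAH2 held 379.8 and 174 CPM in LerxC24 and 68.5 and 74.3 CPM in C24xLer. The call on AT3G62540 was lost without any of the 4 pools, and that on ARGAH2 without C24xLer pool A or B or LerxC24 pool A. Each hybrid was grown in 1 batch, so cross and batch cannot be told apart, and Ler of the batches differed in the same direction at ARGAH2 at 28 DAS.

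In the F4 lines the members were spread from the Ler level through intermediate to low levels. Against C24 at 15 DAS, members passed as higher in L1-1 (18 of 31, with 1.58% of all genes higher), L1-2 (22, 1.70%), L2-1 (24, 1.46%) and L2-2 (22, 1.48%). In the second batch this was so in L3-1 (14, 4.89%), L3-2 (15, 2.73%), L4-1 (19, 6.11%) and L4-2 (21, 5.76%), and among the small lines in S1-1 (14, 3.50%) and S2-1 (19, 2.67%). Lines of a batch share their C24 pools in these tests. Members lower than C24 were few: AT3G29642 and AT3G29644 in L3-1 (2, 4.78% of all genes lower) and in S1-1, AT5G26622 in S1-1 (3 in all, 2.89%) and in L4-1 (1, 6.88%), and AT3G62530 in L4-2 (1, 4.50%). The call of AT3G29642 in L3-1 was lost without C24 pool D or either L3-1 pool, that of AT5G26622 in S1-1 without any of the 4 pools and in L4-1 without L4-1 pool B.

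By member, AT4G19239 and AT4G19240 were higher than C24 in 10 of 10 lines. AT1G23960, AT1G24388, ARGAH2 and AT4G14905 were higher in 9 lines. The calls of ARGAH2 in L2-1, L2-2, L3-2, L4-1, L4-2 and S2-1 were each lost when some pool was left out. So were those of AT4G14905 in L2-1 and L2-2 and that of AT4G19239 in L3-1. AT2G24755 and AT2G24760 were higher in 3 lines (L3-2, L4-2 and S2-1), SADHU5-2 and AT5G35965 in 3 others (L1-1, L1-2 and L2-1), and AT3G43350 in 2 (L4-1 and L4-2, the second call lost without C24 pool C or D or L4-2 pool B). AT3G28223 and CSLA01, which did not pass between the parents at this age, were higher in none.

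The lines were then read along the chromosomes by the ratio of their mean level to Ler of the batch, called low up to 0.25, at the Ler level from 0.75, and intermediate between. At 15 DAS, L3-1 had 8 members at the Ler level, 6 intermediate and 15 low of 29 with at least 2 CPM in Ler; at 28 DAS it had 9, 5 and 17 of 31. L3-2 had 8, 8 and 13, then 9, 7 and 15. L4-1 had 8, 11 and 10 of 29 at 15 DAS and 9, 11 and 11 of 31 at 28 DAS, and L4-2 had 10, 10 and 9, then 13, 8 and 10. Over the smallest Ler seedlings at 15 DAS, L1-1 had 12, 6 and 12 of 30 and L1-2 had 12, 10 and 8, with 11, 7 and 13 and 11, 12 and 8 of 31 at 28 DAS. In the L2 lines intermediate members were the most frequent at 28 DAS, with 6, 18 and 7 of 31 in L2-1 and 5, 16 and 10 in L2-2, and at 15 DAS these lines had 12, 11 and 7 and 9, 12 and 9 of 30. Each of the 10 lines thus had members of all 3 classes, in different proportions. In the hybrids nearly all members were intermediate, but for C24xLer at 15 DAS over Ler of batch 1 (19, 10 and 1 of 30). LerxC24 had 2, 26 and 1 of 29 at 15 DAS and 1, 28 and 2 of 31 at 28 DAS, and C24xLer had 2, 27 and 1 of 30 over the smallest Ler seedlings and 0, 29 and 2 at 28 DAS. S1-1 had 13 at the Ler level, 2 intermediate and 15 low, and S2-1 had 9, 12 and 9, both of 30 and over the smallest Ler seedlings. Over Ler of batch 1 at 15 DAS, the pools that stood apart, more members of these lines were at the Ler level. L1-1 then had 16, 2 and 12 of 30, L1-2 16, 7 and 7, L2-1 17, 7 and 6 and L2-2 16, 6 and 8. S1-1 had 14, 1 and 15 over these pools, and S2-1 had 16, 5 and 9. At 15 DAS, C24 itself was above 0.25 of Ler at AT3G62540 and AT4G14905, and, in batch 1, at CYP71A25 (0.4356 of Ler of batch 1, though not of the smallest Ler seedlings) and CSLA01, so a line at the C24 level is not placed as low there.

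On chromosome 1, AT1G58235, AT1G60505, DRP4D and AT1G66660 were low in both L1 lines at both ages. AT1G58235, a gene with no annotated product, held 1.11 and 0.942 CPM in L1-1 and 0.819 and 0.904 CPM in L1-2 at 15 DAS, against 16.1 and 19.4 CPM in Ler and 0.658 and 1.06 CPM in C24. At 28 DAS it held 0.215 and 0.383 CPM in L1-1 and 0.331 and 0.229 CPM in L1-2, against 19.0 and 13.5 CPM in Ler. The L1 pools thus lay near the C24 level in both samplings. The first 4 members, AT1G10110, AT1G23960, AT1G24388 and AT1G27540, were low in S1-1, and AT1G10110 and AT1G66660 in S2-1. AT1G27540 was low in L4-1 at both ages, at 4.18 and 4.37 CPM at 15 DAS and 1.40 and 1.56 CPM at 28 DAS, while in L4-2 it held 42.5 and 53.3 CPM and 49.4 and 61.3 CPM.

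On chromosome 2 the members divided into pairs. AT2G13750 and AT2G14460 were low at both ages in L2-1, L3-1, L3-2 and L4-2, and AT2G14460 in L4-1 too. AT2G14460 had no read in any pool of L3-1, L3-2 or L4-2 at either age, and held 11.7 and 7.08 CPM in L1-1 and 15.6 and 13.6 CPM in L1-2 at 15 DAS. The overlapping AT2G24755 and AT2G24760 were low at 15 DAS in all lines but L3-2, L4-2 and S2-1. In those lines AT2G24755 held 24.2 and 19.2, 14.2 and 20.6, and 26.0 and 19.5 CPM, intermediate levels, and in the other 7 lines 0.530 to 0.857 CPM.

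On chromosome 3, AT3G18535, AT3G29642, AT3G29644 and AT3G44070 were low in L1-1, L3-1 and L3-2 at both ages, and in S1-1. They were at the Ler level, at both ages, in L2-1, L4-1 and L4-2, apart from AT3G18535 in L4-2 at 28 DAS (0.748). AT3G18535 held 132 and 116 CPM in L4-1 and 0.723 and 0.731 CPM in L3-1, against 124 and 98.4 CPM in Ler of their batch. Farther along, AT3G62530 was at the Ler level in L1, L2 and S lines (153 to 197 CPM at 15 DAS) and low in L3-2, L4-1 and L4-2 (5.32 to 14.2 CPM, within or below the 12.1 and 15.9 CPM of C24). L3-1 was intermediate at 15 DAS, with 42.8 and 69.3 CPM, and low at 28 DAS (0.227), with 39.4 and 23.3 CPM, well above the 2.73 and 3.22 CPM of C24.

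AT3G43350, a pseudogene on the same chromosome chosen here after its values were seen, was low in every F4 line at both ages. At 28 DAS it held at most 0.149 CPM in a pool of any line, with no read in either pool of L1-1, L1-2, L3-1 or L3-2, while the hybrids held 0.743 and 0.790 CPM (C24xLer) and 1.25 and 2.46 CPM (LerxC24), against 2.82 to 5.71 CPM in Ler. At 15 DAS the lines held 1.31 to 3.71 CPM, against 7.18 to 26.0 CPM in Ler and 1.22 to 1.86 CPM in C24.

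On chromosome 4, AT4G19239 and AT4G19240 were low in no line at either age. AT4G14905 was low in no L line at 28 DAS, and at 15 DAS its C24 level, at 0.4975 and 0.3091 of Ler in batches 1 and 2, lies above the limit for low. In S2-1 it held 12.5 and 14.9 CPM, close to the mean of 14.2 CPM in C24 of batch 1. AT4G19240 held 50.4 to 61.0 CPM in the L1 lines and 16.8 to 69.2 CPM in the other L lines at 15 DAS, all above the 1.22 to 1.64 CPM of C24. ARGAH2 varied widely between pools. At 28 DAS it held 225 and 273 CPM in L1-1 and 50.8 and 73.7 CPM in L2-1, against 160 and 167 CPM in Ler of batch 1.

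On chromosome 5, SADHU5-2, AT5G35965 and AT5G49640 were at the Ler level in both L1 lines at both ages, and low in L2-2, L3-1, L3-2 and L4-2. AT5G49640 held 55.9 and 36.9 CPM in L1-1 and 0.245 and 0.528 CPM in L3-1 at 15 DAS. AT5G27345 was low in both L1 lines at 28 DAS, with 0.681 to 0.905 CPM against 30.8 and 27.4 CPM in Ler. It was at the Ler level in L4-2 at both ages (41.3 and 58.4, then 19.8 and 28.1 CPM). AT5G26622 was at the Ler level in the L1 lines and low in L2-2, L3-1, L3-2 and L4-1 at both ages.

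**Figure D4:**
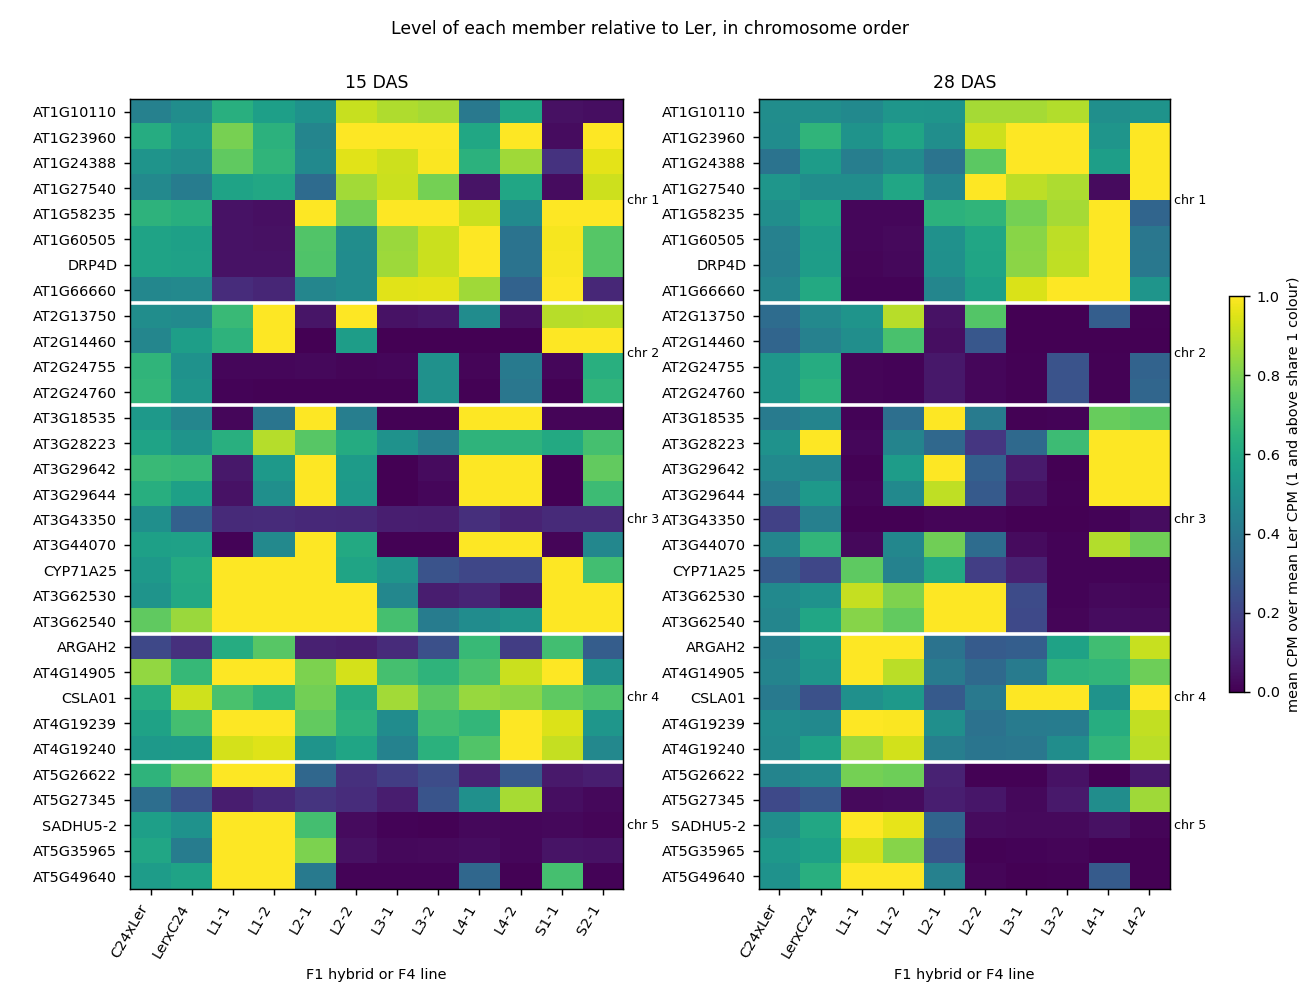
Mean CPM of each member in each hybrid and line (columns) over mean Ler CPM of the batch and age, by colour from 0 (dark) to 1 and above (yellow), with members in rows by chromosome order, at 15 DAS (batch 1 and S lines over the smallest Ler seedlings) and at 28 DAS. Most cells of the hybrids have mid-range colours, while the lines show runs of neighbouring members that are dark or yellow beside mid-range ones, which are frequent in the L2 lines at 28 DAS, and AT3G43350 is dark in every line.

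The classes were then compared between the ages. Of 295 pairs of a member with a hybrid or L line that could be placed at both ages, 215 (72.88%) were in the same class, and 252 (85.42%) with the smallest Ler seedlings as the Ler of batch 1. By line the share ran between 33.33% (C24xLer), 53.33% (L2-1) and 56.67% (L2-2) at the low end and 96.55% (L4-1) at the high end, and with the smallest Ler seedlings between 73.33% (L2-1) and 96.55%. Among the pairs in which C24 was itself at most 0.25 of Ler at both ages, 200 of 265 (75.47%) were in the same class, and 237 of 270 (87.78%) with the smallest Ler seedlings. With that Ler, over all pairs, 1 pair was low at one age and at the Ler level at the other, ARGAH2 in L4-2. With Ler of batch 1 there were 4, the others being AT3G43350 and AT5G27345 in C24xLer and CYP71A25 in L2-2. Members next to each other on a chromosome, in the L and S lines, shared their class in 137 of 216 cases (63.43%) at 15 DAS, against 252 of 558 (45.16%) for members farther apart on a chromosome. At 28 DAS the counts were 123 of 184 (66.85%) and 284 of 512 (55.47%). Next to each other here means adjacent in the order of members, and no distance was used. Pairs of overlapping members were left out of these counts, but each member of such a pair was still set against other members. The counts carry no test since lines and members are not independent. At 15 DAS the counts of neighbouring and farther members used Ler of batch 1 for the L1, L2 and S lines. They were not repeated with the smallest Ler seedlings and share the limit of those pools.

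Lines whose labels share the first number, such as L4-1 and L4-2, were compared with each other. No parental library enters the difference itself. The filter, scaling and spread came from the model of all groups of an age, parents included. At 28 DAS these hold the parental pools that chose the members, so the tests are not independent of that choice. At 15 DAS, 4 members differed between the L1 lines (0.189% of all genes called), 10 between the L2 lines (0.867%), 3 between the L3 lines (0.132%), 11 between the L4 lines (7.94%) and 11 between S1-1 and S2-1 (1.39%). At 28 DAS the members called numbered 1 for L1 (0.194%), 5 for L2 (0.359%), 5 for L3 (0.111%) and 6 for L4 (0.549%). Of the 17 calls at 28 DAS, 15 (88.2%) were also calls at 15 DAS in the same direction, which is 53.6% of the 28 calls of L lines at 15 DAS. No share over all genes is given for this overlap, so whether it stands out cannot be told. The overlapping AT2G24755 and AT2G24760, which may be 1 signal, are both counted in L3 and in L4.

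Between the L1 lines, AT3G18535 held 1.13 and 0.860 CPM in L1-1 and 23.1 and 22.8 CPM in L1-2 at 15 DAS (log2 -4.53 ± 0.34, edgeR, BH adjusted p = 1.01e-07). At 28 DAS it held 0.319 and 0.624 CPM in L1-1 and 17.6 and 13.9 CPM in L1-2 (-5.12 ± 0.97, edgeR, BH adjusted p = 0.0354). The pools did not overlap at either age, but the 28 DAS call was lost without any of the 4 pools, and also with the pool letter as a block. The 4 members called at 15 DAS, AT3G18535, AT3G29642, AT3G29644 and AT3G44070, follow each other on chromosome 3 with AT3G28223 and AT3G43350 between them.

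Between the L2 lines, AT5G49640, a gene of unknown product, held 26.1 and 9.81 CPM in L2-1 and 0.268 and 0.473 CPM in L2-2 at 15 DAS (log2 5.63 ± 0.62, edgeR, BH adjusted p = 7.36e-06). The difference was 5.05 ± 0.73 at 28 DAS (edgeR, BH adjusted p = 0.00188). The retroelement SADHU5-2 was likewise higher in L2-1, by 4.68 ± 0.40 at 15 DAS and 3.57 ± 0.52 at 28 DAS, and AT2G13750 was lower in L2-1 (-4.17 ± 0.31 and -3.77 ± 0.50). At 15 DAS the count of 10 members became 5 without L2-1 pool A or L2-2 pool A.

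Between the L3 lines, AT2G24755 held 0.735 and 0.731 CPM in L3-1 and 24.2 and 19.2 CPM in L3-2 at 15 DAS (log2 -4.84 ± 0.21, edgeR, BH adjusted p = 2.59e-12). At 28 DAS it held 0.139 and 0.197 CPM in L3-1 and 7.47 and 6.67 CPM in L3-2 (-5.30 ± 0.93, edgeR, BH adjusted p = 0.0301), a call lost without L3-1 pool A or B or L3-2 pool A, as was that of AT2G24760. AT3G62530 was higher in L3-1 at both ages (2.56 ± 0.25 and 4.61 ± 0.50), and its calls held with each pool left out. The count of 5 at 28 DAS became 1 without L3-1 pool A or L3-2 pool A and 3 without L3-1 pool B.

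Between the L4 lines, AT1G27540 was lower in L4-1, with a log2 difference of -3.59 ± 0.39 at 15 DAS and -5.25 ± 0.37 at 28 DAS (edgeR, BH adjusted p = 7.32e-06 and 8.45e-07). AT2G24755 was lower in L4-1 (-4.96 ± 0.21 and -6.21 ± 1.00), and AT2G13750 was higher (3.40 ± 0.31 and 5.74 ± 0.71). AT5G49640 held 20.3 and 4.77 CPM in L4-1 and 0.181 and 0.339 CPM in L4-2 at 15 DAS (5.43 ± 0.64, edgeR, BH adjusted p = 2.10e-05). Of the 11 members called at 15 DAS, 4 lay on chromosome 1, 3 on chromosome 2 and 2 on chromosome 5. The others were AT3G62530 on chromosome 3 (edgeR, BH adjusted p = 0.00933, higher in L4-1), a call lost without L4-1 pool A or L4-2 pool A or B, and AT4G14905 on chromosome 4 (-0.47 ± 0.14, edgeR, BH adjusted p = 0.0478), a call lost without any of the 4 pools. The 6 members called at 28 DAS lay on chromosomes 1, 2 and 5. Without L4-1 pool B, the 6 calls at 28 DAS became 3, and those of AT2G24755 and AT2G24760 were lost. Between the S lines, AT5G49640 was higher in S1-1 (6.14 ± 0.62, edgeR, BH adjusted p = 1.57e-06), and AT2G24755 (-5.15 ± 0.21) and AT1G27540 (-4.74 ± 0.41) were lower in S1-1.

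**Figure D5:**
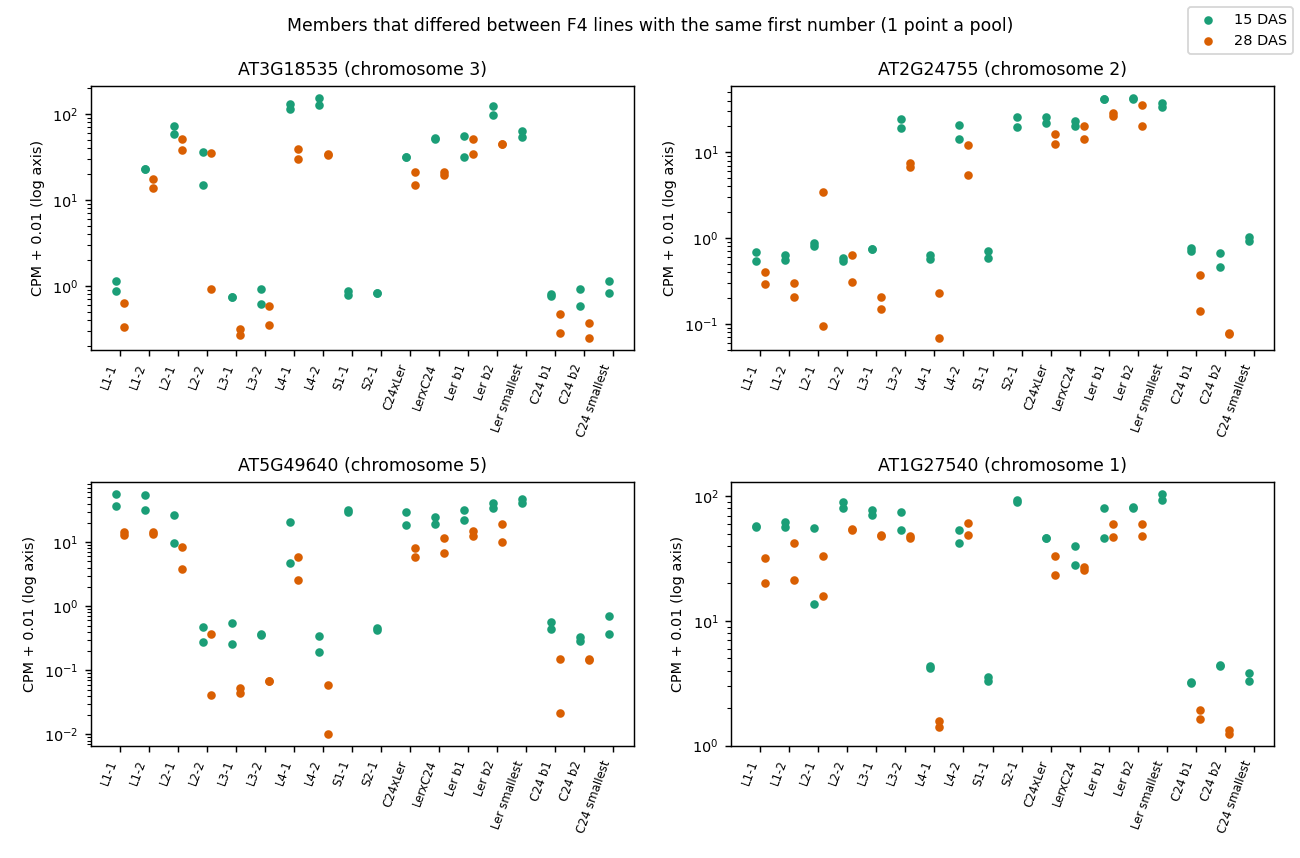
Levels of AT3G18535, AT2G24755, AT5G49640 and AT1G27540 in each pool of the lines, hybrids and parents at 15 and 28 DAS, in CPM plus 0.01 on a log axis. For each of the 4 members, lines that share a first number can lie more than an order of magnitude apart, as AT2G24755 does between L3-1 and L3-2.

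Within some lines the pools themselves differed. A difference above 4-fold between the pools of a line, where the higher pool held at least 2 CPM, was found in 4 of 212 cases at 15 DAS (1.89%, with 0.372% over all genes) and in 7 of 163 at 28 DAS (4.29%, with 0.736%). In the hybrids it was found in 1 of 58 and 1 of 59 cases (1.72% and 1.69%, with 0.524% and 0.483% over all genes). The parents had it in 2 of 109 and 1 of 64 cases (1.83% and 1.56%, with 0.435% and 0.35%). At 15 DAS the share in the lines was thus near those in the hybrids and parents. At 28 DAS, AT3G18535 held 0.909 and 34.8 CPM in pools A and B of L2-2, and AT3G29644 held 0.0884 and 3.08 CPM there. In L2-1, AT2G24755 held 3.48 and 0.0838 CPM and AT2G24760 3.22 and 0.0838 CPM. C24 of that batch held 0.464 and 0.273 CPM of AT3G18535 and 0.357 and 0.131 CPM of AT2G24755.

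Genes beside the members, taken as the nearest annotated gene on each side that is no member, separated the parents in a minority of cases. That minority was a larger share than over all genes, with genes that overlap a member counted in. Of the 42 such genes with counts, 37 were tested, and of these 7 passed between Ler and C24 of batch 1 at 15 DAS (6.58% of all genes called in either direction), 11 with the smallest Ler seedlings (no share over all genes given), and 14 passed in batch 2 (18.8%). The 7 of batch 1 were all higher in Ler, and of the 14 of batch 2, 11 were higher and 3 lower. The largest difference was at AT3G43340, annotated as a pseudouridine synthase and next to AT3G43350 (log2, Ler over C24, 4.96 ± 0.26 and 6.38 ± 0.28). AT2G24750 (3.11 and 3.13) and AT3G18530 (2.21 and 3.37) overlap members and may hold their reads. AT1G24390, also among the 42 genes with counts, overlaps AT1G24388. The counts were not repeated without such genes, so the larger share may in part reflect reads of the members.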

How the data were processed

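RNA of 64 pools, 36 at 15 DAS and 28 at 28 DAS, was analysed from the deposited raw counts per gene of each age. Reads were checked with FastQC and mapped to TAIR10 per the submitters' processing notes; which programs mapped and counted them is not given in the sources used here. Total counts per library are in the report, and no further interval for counting error was computed. The deposited normalised tables and a combined table were not used here. Gene names, types and order came from RefSeq (TAIR10.1), which held 32565 of the rows, and no coordinates were used.

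Counts were fitted with edgeR 4.0.16 (R 4.3.3, limma 3.58.1): low genes were removed by filterByExpr with the groups given, libraries were scaled by TMM (trimmed mean of M values), and each age had 1 quasi-likelihood model of all its groups, which was first tested on simulated data. All 31 members passed the filter at both ages. Two-sided p-values were BH adjusted over every gene in the model, and a call is an adjusted value below 0.05. A standard error is the log2 difference over the square root of F. A mid-parent was the average of a Ler and a C24 library with matching letters, both first scaled. Parents at 28 DAS, and comparisons with them, were described with no test. Alternatives were DESeq2 1.42.0, its size factors, no filter, the batch's libraries only, the pool letter as a block, other mid-parents, other limits of the rule and classes, the smallest Ler seedlings for Ler of batch 1, and each pool left out.

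The members and lists were chosen with earlier results of these data known. Named by rule were the 10 members highest in Ler at 28 DAS, the 3 genes nearest each side of the limit, the 2 highest per chromosome in Ler of batch 2 at 15 DAS, members called off the mid-parent or between hybrids at both ages, members not called in batch 2, the 2 with the largest difference per pair of lines called at both ages, and members of the class lists. Others are examples chosen after their values were seen. Pool letters match in the labels of some groups, but no label says that a letter marks a shared origin. Deviations of pools with the same letter correlated at up to 0.577 between groups. With 2 letters a group the pairing was not established, and the tests reported do not use it.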

Additional observations from a re-analysis of the deposited data

Results flagged for a closer look

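At 15 DAS the difference between Ler and C24 was larger in batch 2 than in batch 1 at 4 members, by the test of that difference (edgeR, BH adjusted p below 0.05, with 1.12% of all genes called). The log2 difference of batch 2 minus that of batch 1 was 1.20 at AT1G60505 and 1.17 at the overlapping DRP4D (AT1G60510), 1.56 at AT3G43350 and 2.95 at AT3G44070. AT3G43350 held 26.0 and 22.7 CPM in Ler of batch 2 and 7.27 and 7.18 CPM in Ler of batch 1, with 1.22 to 1.56 CPM in the C24 pools of both batches (BH adjusted p = 0.000487). Its call held with each of the 8 pools left out, while those on AT1G60505 and DRP4D were lost without any of them. The call on AT3G44070 was lost without any pool but Ler pool B of batch 1. With the smallest Ler seedlings in place of Ler of batch 1, none of the 4 passed. The Ler pools of batch 1 are those in which transcripts scarce in Ler leaves sat at 0.352 and 0.232 of the C24 level; their part in these differences was not tested. No group had enough samples for a test of single outlying pools.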

How the results depend on the processing

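Of 370 alternative values over 57 counts, 317 lay within 1.5 times the count reported, and 53 lay beyond, 31 of them among the 144 with a pool left out. The cause was not tested in any of these cases. With the smallest Ler seedlings for Ler of batch 1, 11 genes beside members passed in place of 7, 8 members were lower in C24xLer than in Ler in place of 1, and the Ler difference varied between batches at 0 in place of 4. These alternative counts are given without the share over all genes. Under DESeq2, 5 members differed between the L3 lines at 15 DAS and 5 between the L1 lines at 28 DAS, 2 between the hybrids at 15 DAS and 2 at 28 DAS, and 3 and 1 lay off the mid-parent in C24xLer and LerxC24. Off the mid-parent in C24xLer, 1 member was called with DESeq2 size factors, 1 with no filter and 1 with crossed letters. With the mid-parent averaged on the log scale, which lowers it where parents differ, 22 members were called in C24xLer and 16 in LerxC24. With no filter, 2 members differed between the L1 lines at 28 DAS. With a pool left out, counts ran from 0 to 0 for C24xLer below Ler, 2 to 3 for LerxC24 below Ler, 5 to 12 for the L2 lines at 15 DAS, 0 to 0 for the hybrids at 15 DAS and 0 to 1 at 28 DAS, 1 to 4 for the batch difference, and at 28 DAS 0 to 1 for L1, 1 to 4 for L3 and 3 to 6 for L4. A fold limit of 1/8 gave 54 members and one of 1/32 gave 20. With class limits of 0.1 and 0.5, no member was low in a hybrid.

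With the pool letter as a block, 0 members differed between the L1 lines at 28 DAS in place of 1, and no other count moved beyond 1.5 times. Deviations of pools with the same letter correlated between -0.0311 and 0.577 over pairs of groups, and the 5 most alike pairs of pools from different groups shared their letter. The restriction of the comparison of ages to pairs with a low C24 was chosen after seeing the data. The fit to libraries of 1 batch has no value for the hybrids or the batch difference, which span both.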
